A study of Mus musculus with 4 samples.

Results

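Isg20 was the gene that held transcripts listed far apart in opposite directions between Nutlin-3a and DMSO, by a size rule on the authors' values. The rule took symbols with 2 or more listed transcripts, of which at least 1 had 5 FPKM or more in Nutlin-3a and under 0.5 FPKM in DMSO, and at least 1 other had 5 FPKM or more in DMSO and under 0.5 FPKM in Nutlin-3a. FPKM divides the fragments of a transcript by its length in kilobases and by the mapped total, and so is a level per length. Of 4399 symbols with 2 or more listed transcripts, among 16709 symbols in all, Isg20 was the 1 gene found. Mdm4, the gene of a p53-binding relative of Mdm2, also met the limits, with one transcript at 6.70 FPKM in Nutlin-3a, against 0 in DMSO, and another at 0.00977 FPKM in Nutlin-3a, against 5.67 FPKM in DMSO, but the rule leaves it out. Isg20 was thus chosen by the Nutlin-3a and DMSO FPKM values given below, which describe the gene and were not tested.

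RNA was sequenced from cultures of 3T3L1 preadipocytes, mouse cells that resemble fibroblasts and can mature into adipocytes. The Nutlin-3a group was exposed to 25 µM of the compound, dissolved in DMSO, for 24 h, and the DMSO group received the same amount of vehicle. Nutlin-3a occupies the pocket of MDM2 that binds p53 and so frees p53 from this ubiquitin ligase. The labels give 2 biological replicates to each group (4 libraries), but the table held 1 value per transcript and group. No value therefore carries a replicate error, no p-value was computed, and whether a difference exceeds the spread between cultures could not be tested. The preadipocyte marker Dlk1 had 623 FPKM in Nutlin-3a, against 513 FPKM in DMSO. Of 5 markers of preadipocytes and fibroblasts, all were listed in both groups. The growth factor receptor gene Pdgfra and the collagen genes Col1a1 and Col1a2 were at least 2-fold lower in Nutlin-3a, a limit that 6.14% of all symbols compared passed. The surface marker Thy1 had 47.9 FPKM in Nutlin-3a, against 88.6 FPKM in DMSO. The p53 target Cdkn1a had 386 FPKM in Nutlin-3a, against 35.2 FPKM in DMSO. Mdm2, whose protein the compound binds, was listed at 0 in Nutlin-3a and 773 FPKM in DMSO, although it is itself a p53 target. Where reads are assigned by estimate, a listed 0 may also be an estimate that failed.

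Isg20 encodes a small exonuclease that trims single-stranded RNA and DNA from the 3′ end. It is named for its induction by interferon and is known for restricting the replication of RNA viruses. Like many genes, it can be read from more than one start site and spliced in more than one way, so that one gene gives several transcripts. Programs that assign short reads to such transcripts split the reads of shared exons among them by estimate.

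The gene lies on the plus strand of chromosome 7, from 78913424 to 78920396 in mm10, and all 5 of its listed transcripts carried this same span. That span was equal to the Isg20 gene in GENCODE release M21, where the gene has 6 transcripts with 6 different first bases. Of these, 5 are annotated as coding and share 1 start of translation at 78914347 and the first 2 coding blocks of 228 and 201 bases. Isg20-201, Isg20-202 and Isg20-203 have the same 3 coding blocks, 543 bases or 181 codons, and differ in their untranslated parts. Isg20-204 reads into a longer last exon and has 300 codons. Isg20-206 ends sooner and has 145 codons. Isg20-205 is annotated as a transcript with a retained intron. The listed transcripts could not be matched to these models. They share 1 span, and the accession listed beside each of the 5 belongs to another gene in RefSeq. Over the whole table, 1543 of 22706 accessions found in RefSeq belonged to the symbol of their row. This listing thus appears out of step with the transcripts. Whether the FPKM values are in step with them was not tested.

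The annotated coding sequences part after the second coding block, and this is where transcripts of the gene can give different proteins. The last 30 shared bases are shown in lower case, followed in capitals by up to 60 coding bases of the last exon (mm10, chromosome 7, plus strand, GENCODE M21 transcripts).
Isg20-201, last coding block from 78920046 to 78920159: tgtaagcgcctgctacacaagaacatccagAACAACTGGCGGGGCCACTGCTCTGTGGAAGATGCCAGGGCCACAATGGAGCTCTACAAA
Isg20-204, last coding block from 78919712 to 78920182: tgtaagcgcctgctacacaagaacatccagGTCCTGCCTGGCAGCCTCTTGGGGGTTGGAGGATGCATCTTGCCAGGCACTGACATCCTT
Isg20-206, last coding block from 78919801 to 78919806: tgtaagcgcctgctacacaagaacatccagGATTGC
The coding bases of Isg20-202 and Isg20-203 over this stretch are those of Isg20-201. The last coding blocks hold 114 bases in Isg20-201, 471 in Isg20-204 and 6 in Isg20-206.

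RefSeq lists 3 start sites for Isg20, at 78913424, 78913765 and 78914235, which lets transcripts with the same protein begin at different promoters. The bases before each start are shown because the listed transcripts may differ in their start (RefSeq, GRCm38.p6, plus strand). The first window lies between Aen and Isg20, and the others lie in introns of Isg20 transcripts, with the exonic bases of the third left out.
Before start 1, chr7:78913174-78913423: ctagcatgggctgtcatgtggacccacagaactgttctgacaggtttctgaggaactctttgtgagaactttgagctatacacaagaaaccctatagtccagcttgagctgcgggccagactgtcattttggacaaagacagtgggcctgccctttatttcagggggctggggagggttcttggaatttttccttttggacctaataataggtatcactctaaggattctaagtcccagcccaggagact
Before start 2, chr7:78913515-78913764: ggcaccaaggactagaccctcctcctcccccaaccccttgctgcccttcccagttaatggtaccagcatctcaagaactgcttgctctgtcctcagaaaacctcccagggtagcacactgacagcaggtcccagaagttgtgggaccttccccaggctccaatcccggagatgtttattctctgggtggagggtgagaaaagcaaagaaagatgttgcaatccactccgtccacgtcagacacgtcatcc
Before start 3, chr7:78914043-78914234: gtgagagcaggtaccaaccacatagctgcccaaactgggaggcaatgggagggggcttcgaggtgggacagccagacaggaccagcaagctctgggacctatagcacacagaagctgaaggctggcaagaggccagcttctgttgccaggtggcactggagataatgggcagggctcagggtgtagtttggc
None of the 3 windows of 250 bases held the core of interferon response elements, searched as GAAA followed after any 2 bases by another GAAA, or the p53 half-site consensus, on either strand, so no base is in capitals. Among 32851 RefSeq windows of this length, 2.98% held the first and 7.13% the second. The letters say nothing of whether a factor binds there.

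By the listed values, Isg20 was carried by one transcript in Nutlin-3a and by another in DMSO. TCONS_00028929 had 26.0 FPKM in Nutlin-3a, against 0.00637 FPKM in DMSO. TCONS_00028926 had 0.0869 FPKM in Nutlin-3a, against 7.10 FPKM in DMSO. Each was thus high in one group and close to 0 in the other, and values close to 0 are too uncertain for a fold to be read from them. In RNA from whole cultures, a transcript in fewer cells and less of it per cell cannot be told apart. Nor can a change of transcript be told apart here from reads of shared exons assigned differently in each group, which was not tested.

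**Figure D1:**
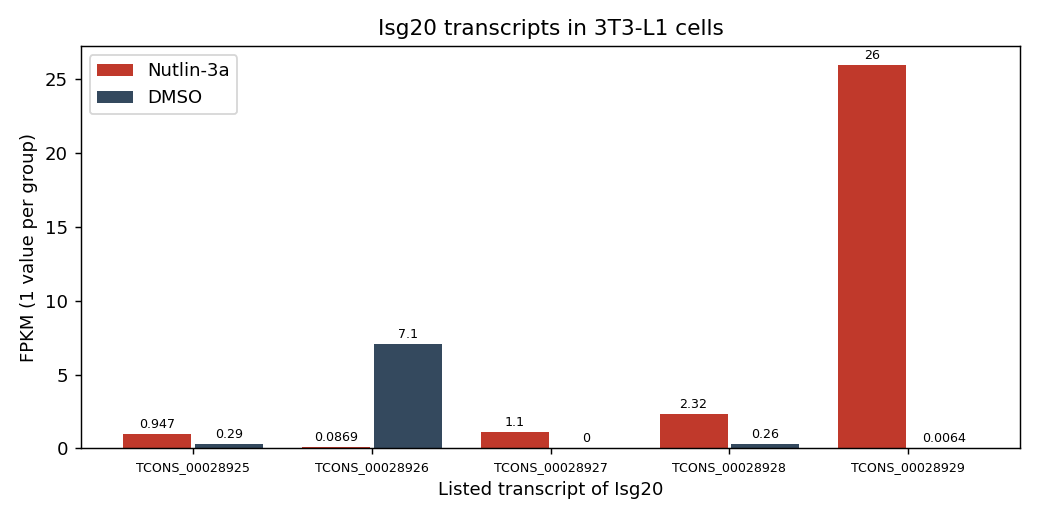
FPKM of the 5 listed Isg20 transcripts, with Nutlin-3a bars left of DMSO bars; each bar is the authors' 1 value per group, so there are no error bars. TCONS_00028929 stands at 26.0 FPKM in Nutlin-3a, and TCONS_00028926 stands at 7.10 FPKM in DMSO.

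The other 3 transcripts were weak in both groups and lay higher in Nutlin-3a. TCONS_00028928 had 2.32 FPKM in Nutlin-3a, against 0.264 FPKM in DMSO, a log2 ratio of 1.39 after 1 FPKM was added to each value. TCONS_00028925 had 0.947 FPKM in Nutlin-3a, against 0.291 FPKM in DMSO, a log2 ratio of 0.59 on the same scale. TCONS_00028927 had 1.10 FPKM in Nutlin-3a and was listed at 0 in DMSO, so it is given no fold. Together these 3 held 4.37 FPKM in Nutlin-3a, against 0.555 FPKM in DMSO. In all, 4 of the 5 transcripts were higher in Nutlin-3a and 1 was higher in DMSO.

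As shares of the gene, TCONS_00028929 made up 85.4% of the Isg20 FPKM in Nutlin-3a, against 0.0831% in DMSO. TCONS_00028926 made up 0.286% in Nutlin-3a and 92.7% in DMSO. The remaining transcripts took small shares in both groups. TCONS_00028928 had 7.63% in Nutlin-3a and 3.44% in DMSO, TCONS_00028925 had 3.11% in Nutlin-3a and 3.80% in DMSO, and TCONS_00028927 had 3.61% in Nutlin-3a and was listed at 0 in DMSO. Added up, 93.1% of the Isg20 FPKM sat on other transcripts in Nutlin-3a than in DMSO. This share was 5.80% at the median of the 3102 symbols with 2 or more transcripts and a mean summed FPKM of at least 1, with quartiles of 0.862% and 17.8%. Isg20 ranked 8 among them, a position that its choice by the same values favours. The leading transcript differed between the groups in 398 of these symbols, or 12.8%.

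**Figure D2:**
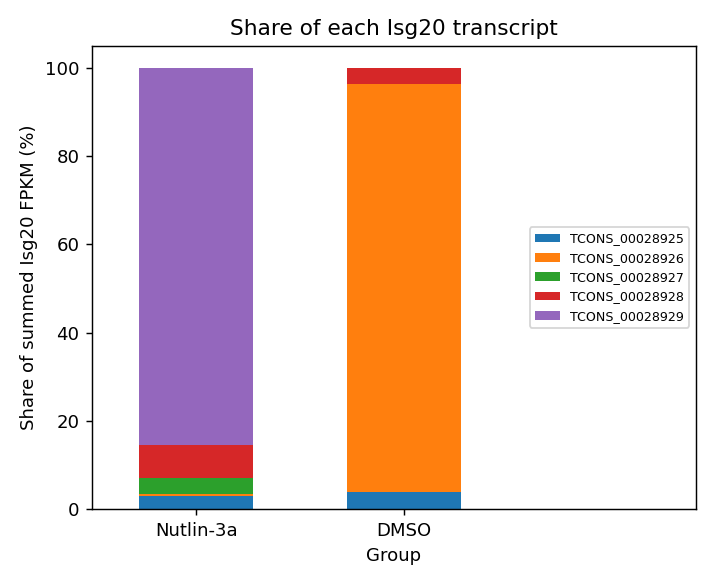
Share of the summed Isg20 FPKM held by each of the 5 listed transcripts, in percent, in Nutlin-3a (left) and DMSO (right). TCONS_00028929 fills 85.4% of the Nutlin-3a bar and TCONS_00028926 fills 92.7% of the DMSO bar.

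Isg20 as a whole was higher in Nutlin-3a. Summed over its 5 transcripts it had 30.4 FPKM in Nutlin-3a, against 7.66 FPKM in DMSO, a plain fold of 3.97 and a log2 ratio of 1.86 on the log2(FPKM + 1) scale. By summed FPKM it ranked 2381 of 16709 symbols in Nutlin-3a and 5538 in DMSO. A 2-fold or larger higher value in Nutlin-3a was listed for 6.62% of 10331 symbols compared and a 2-fold or larger lower value for 6.14%. The higher value was listed for 4.45% of the 3102 with 2 or more transcripts. Among the symbols compared, 1.17% had a higher log2 ratio than Isg20, and the median was 0.07. The sum uses the same values as the rule that chose the gene, so nothing is read from its place in this order.

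Symbols with a strongly one-sided transcript were few. A transcript of at least 5 FPKM in Nutlin-3a and under 0.5 FPKM in DMSO was held by 52 symbols, 1.18% of those with 2 or more transcripts. The reverse, 5 FPKM or more in DMSO and under 0.5 FPKM in Nutlin-3a, was held by 42 symbols, or 0.955%. Isg20 and Mdm4 were the 2 symbols that held both, 0.0455%. Of the 52 transcripts high in Nutlin-3a alone, TCONS_00028929 ranked 4 by FPKM, against a median of 6.72 FPKM in Nutlin-3a. Of the 43 transcripts high in DMSO alone, TCONS_00028926 ranked 27 by FPKM, against a median of 7.58 FPKM in DMSO. The transcript of Isg20 that led in DMSO thus lay nearer to the limit of the rule than the one that led in Nutlin-3a.

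The symbols that missed the rule by least show where its limits fall. H2afy, the gene of the histone variant macroH2A1, had a transcript at 4.90 FPKM in Nutlin-3a, against 0.393 FPKM in DMSO, just under the limit of 5, and another at 0.00566 FPKM in Nutlin-3a, against 22.3 FPKM in DMSO. Cuedc2, the gene of a ubiquitin-binding CUE domain protein, had one at 4.79 FPKM in Nutlin-3a, against 0.163 FPKM in DMSO, and another at 0.570 FPKM in Nutlin-3a, against 10.7 FPKM in DMSO. Rbfox2, a splicing regulator gene, had one at 6.74 FPKM in Nutlin-3a, against 0 in DMSO, and another at 0.609 FPKM in Nutlin-3a, against 8.46 FPKM in DMSO. Their sums differed less than that of Isg20. They were 42.9 FPKM in Nutlin-3a, against 35.9 FPKM in DMSO for H2afy, 82.4 FPKM in Nutlin-3a, against 131 FPKM in DMSO, for Cuedc2, and 12.5 FPKM in Nutlin-3a, against 14.9 FPKM in DMSO, for Rbfox2.

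**Figure D3:**
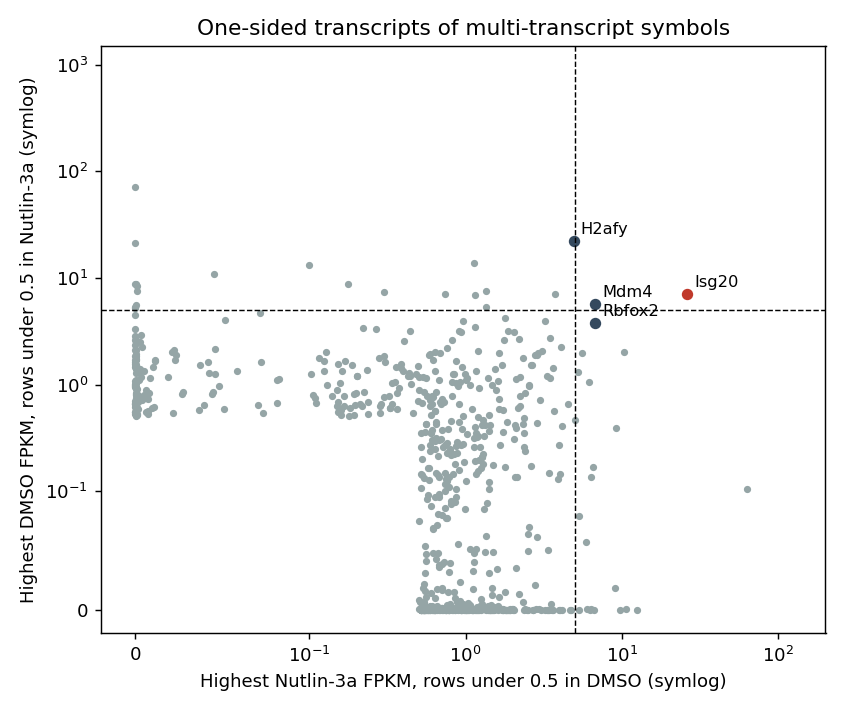
Each of 735 symbols with 2 or more transcripts, at least 1 of them under 0.5 FPKM in DMSO and 1 under 0.5 FPKM in Nutlin-3a, and a value of at least 0.5 on either axis. The x axis gives the highest Nutlin-3a FPKM among transcripts under 0.5 FPKM in DMSO, and the y axis the highest DMSO FPKM among those under 0.5 FPKM in Nutlin-3a, both on symmetric log axes with the limit of 5 FPKM dashed; Isg20 and Mdm4 lie past both limits.

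Isg20 was on none of the lists of genes drawn up for the comparison, and neither was Mdm4. These 2 symbols, 0.0455% of those with 2 or more transcripts, were the only ones past the limits in both directions. No gene of the lists could therefore be so, and nothing is read from that. The counts below stand beside overall shares of 1.18% of symbols for a transcript high in Nutlin-3a alone and 0.955% for one high in DMSO alone, and with so few genes a list nothing is read from them. Of 26 SR protein and hnRNP genes with 2 or more transcripts, which bind pre-mRNA and steer splicing, Hnrnpa3, Rbfox2 and Srsf11 held one high in Nutlin-3a alone, and Tia1 held one high in DMSO alone. Of 10 spliceosome genes, Ddx17 and Snrpa held one high in DMSO alone. Of 11 p53 targets, Apaf1 held one high in Nutlin-3a alone and Mdm2 held some high in DMSO alone, with the listed 0 noted above. Of 13 regulators of adipogenesis, Zfp467 held one high in DMSO alone. None of 10 actin cytoskeleton, 3 nonsense-mediated decay or 3 housekeeping genes with 2 or more transcripts held either kind.

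Other interferon-stimulated genes that were compared lay within 2-fold on the log2(FPKM + 1) scale. In a list of 17 interferon-stimulated genes chosen after their values were seen, 15 were compared, none lay 2-fold or more higher or lower, and the median log2 ratio was -0.13. Over all symbols compared, 6.62% lay higher and 6.14% lower by this limit, so a count of 0 in 15 is near that background. Isg15, a ubiquitin-like modifier gene, had 105 FPKM in Nutlin-3a, against 130 FPKM in DMSO. Ifit1, whose protein binds viral RNA, had 8.16 FPKM in Nutlin-3a, against 4.94 FPKM in DMSO. Irf7 was the only compared gene of this list past 2-fold as a plain fold. It had 1.85 FPKM in Nutlin-3a, against 4.04 FPKM in DMSO, a plain fold of 0.459 and a log2 ratio of -0.82. None of the 7 with 2 or more transcripts held a one-sided transcript by the limits of the rule, as is also near the overall shares of 1.18% and 0.955%.

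Aen, the gene next to Isg20, is a related exonuclease gene and a known p53 target. It had 74.7 FPKM in Nutlin-3a, against 16.0 FPKM in DMSO, a plain fold of 4.68 and a log2 ratio of 2.16. Its listed model, from 78895927 to 78908833 on chromosome 7, ends 4590 bases before Isg20. In GENCODE M21, where Aen reaches further, the gap is 2214 bases and both genes are on the plus strand. Aen kept its leading transcript, TCONS_00028923, at 72.9 FPKM in Nutlin-3a, against 16.0 FPKM in DMSO. Its other listed transcript, TCONS_00028924, had 1.76 FPKM in Nutlin-3a, against 0.000404 FPKM in DMSO. Whether reads of either gene were counted for the other was not tested. Of 9 exonuclease genes related to Isg20, a list also chosen after values were seen, Aen was the 1 that lay 2-fold or more higher in Nutlin-3a, and none lay 2-fold or more lower, beside 6.62% and 6.14% of all symbols compared. Isg20l2, a nucleolar relative, had 5.15 FPKM in Nutlin-3a, against 6.81 FPKM in DMSO, and Trex1, a DNA exonuclease gene, had 12.8 FPKM in Nutlin-3a, against 22.8 FPKM in DMSO.

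Further genes around Isg20 went different ways. Upstream, Det1, Mrps11 and Mrpl46 had log2 ratios of -0.05, 0.24 and -0.19. Downstream, Mfge8 had 98.6 FPKM in Nutlin-3a, against 126 FPKM in DMSO. Abhd2, 352869 bases past Isg20, had 5.39 FPKM in Nutlin-3a, against 1.48 FPKM in DMSO, and Hapln3 had 1.85 FPKM in Nutlin-3a, against 0.187 FPKM in DMSO. Acan was weak at 0.214 FPKM in Nutlin-3a and was listed at 0 in DMSO. Of these 8 listed neighbours, Aen had the largest log2 ratio, 2.16, beside 1.36 for Abhd2 and 1.27 for Hapln3. The plain fold of Hapln3 was larger than that of Aen, 9.93 against 4.68, but rests on a DMSO value of 0.187 FPKM.

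**Figure D4:**
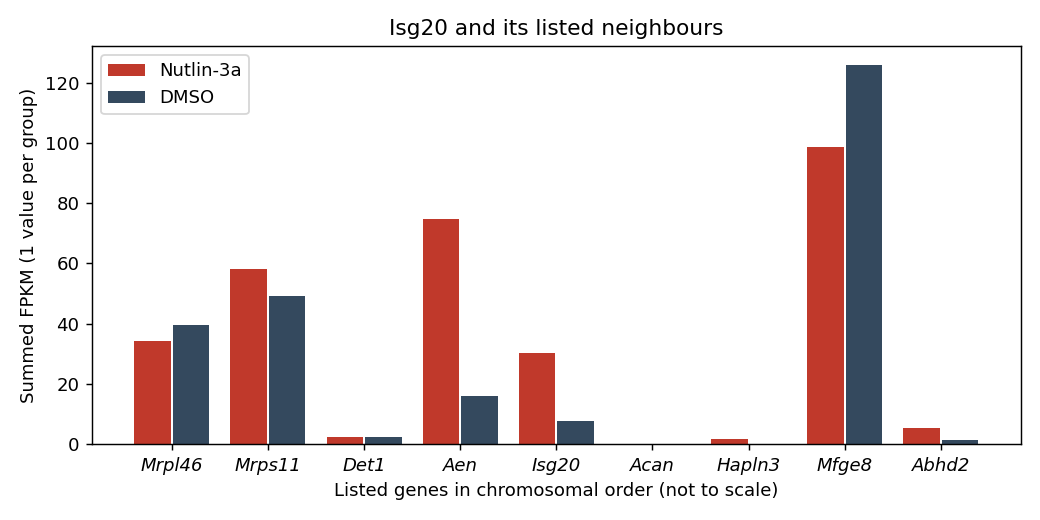
Summed FPKM of Isg20 and the 4 listed genes on each side of it in chromosomal order, with Nutlin-3a bars left of DMSO bars and 1 value per group. Aen and Isg20 stand side by side, Aen at 74.7 FPKM in Nutlin-3a, against 16.0 FPKM in DMSO, and Isg20 at 30.4 FPKM in Nutlin-3a, against 7.66 FPKM in DMSO.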

How the data were processed

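Total RNA of 4 cultures was sequenced in 2 groups of 2 replicates, Nutlin-3a and DMSO, by the sample labels. Per the submitters' processing notes, TopHat2 2.0.11 and mm10 are named. How transcripts were quantified, with which annotation, and how replicates were combined is not given in the sources used here. Deposited by the authors, the FPKM values came as 1 column per group over 24746 transcripts, and 4294 empty lines were left out. The column headed NUT was taken as Nutlin-3a. The DSM column was taken as the only other group, DMSO. Library depth is unknown, so no interval is given. Listed starts count from 0 and are printed from 1.

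Transcripts were grouped by symbol and summed. Log2 ratios are Nutlin-3a over DMSO after a pseudocount of 1. Symbols were compared at a mean summed FPKM of at least 1 and a value above 0 in each group, with a 2-fold limit on that scale. The planned limma fit needs values per library and was not run. The rule for Isg20 and the lists were chosen with earlier results of these data known. Named genes are the gene found by the rule, the 3 symbols closest outside it, and genes of the lists or the neighbourhood, chosen after their values were seen. The accession column was only checked against RefSeq, and the class code and fold columns were not used. Transcript models came from GENCODE M21 and start sites from RefSeq. The working of the rule was checked on simulated data with transcripts planted far past its limits. That check says nothing of errors in read assignment or of the spread between replicates. Analyses used Python 3.11.15, pandas 2.3.3 and matplotlib 3.10.9. Some results are not reported here.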

Additional observations from a re-analysis of the deposited data

How the results depend on the processing

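Isg20 met the rule under 6 of 7 other settings. The looser limits could not remove it, nor could joining by gene model, because all its transcripts share 1 gene model. It was the 1 gene found with the lower side under 0.1 FPKM, after upper-quartile scaling and with transcripts joined by gene model, and 2 genes, Isg20 and Rbfox2, were found after quantile normalization. With the higher side at 2 FPKM the count was 11, and with the lower side under 1 FPKM it was 6, both with Isg20 among them. With the higher side at 10 FPKM the count was 0, because TCONS_00028926 has 7.10 FPKM in DMSO. Isg20 lay past the fold limit under all 8 alternatives tried, but not all of these could fail. A limit of 1.5-fold was looser, and Isg20 was too high for the changed filters on low values to drop it. The transcript with the highest mean was TCONS_00028929, which the rule required to differ. The summed log2 ratio of Isg20, 1.86, ran between 1.48 (pseudocount 5) and 2.09 (upper-quartile scaling). TCONS_00028929 in place of the sum gave 4.74, a value that its choice by the rule favours and from which nothing is read. Upper-quartile scaling moved the median of all symbols compared to 0.29. No paired analysis was possible because the table holds 1 value per group, and leaving out each replicate was not run for the same reason.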

Other observations

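The looser limits brought in further genes with transcripts that lay apart in opposite directions. Acot7, an acyl-CoA thioesterase gene, had a transcript at 18.5 FPKM in Nutlin-3a, against 0.837 FPKM in DMSO, and another at 0.919 FPKM in Nutlin-3a, against 14.4 FPKM in DMSO. Tia1, which encodes an RNA-binding protein of stress granules, had one at 5.12 FPKM in Nutlin-3a, against 0.829 FPKM in DMSO, and another at 0.358 FPKM in Nutlin-3a, against 7.61 FPKM in DMSO. Nmt2, an N-myristoyltransferase gene, had one at 5.49 FPKM in Nutlin-3a, against 0.728 FPKM in DMSO, and another at 0.0430 FPKM in Nutlin-3a, against 6.90 FPKM in DMSO. Fen1, the flap endonuclease gene, had one at 10.3 FPKM in Nutlin-3a, against 0.0126 FPKM in DMSO, and another at 0.0150 FPKM in Nutlin-3a, against 2.04 FPKM in DMSO. The summed levels were 64.3 FPKM in Nutlin-3a, against 109 FPKM in DMSO, for Acot7 and 50.6 FPKM in Nutlin-3a, against 36.6 FPKM in DMSO, for Fen1, so that other transcripts of these genes held much of the sum. They were 6.97 FPKM in Nutlin-3a, against 9.56 FPKM in DMSO, for Tia1 and 6.68 FPKM in Nutlin-3a, against 7.63 FPKM in DMSO, for Nmt2, where the pair held most of the sum, as in Isg20. These genes were named after their values were seen.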
